A study of Mus musculus with 16 samples.

Results

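Exon 5 KO clone 3 (KO3) is a line of Hepa1-6 cells, a mouse hepatoma line, in which exon 5 of Eef1d was deleted (clones were screened for homozygous deletion by PCR and sequencing) with a pair of guide RNAs, S2 and S4, and which was grown from a single cell. Its RNA was compared with that of the unedited Hepa1-6 cells (WT), with 2 RNA-seq libraries of each line, which makes 4 of the 16 libraries of the series. KO1 and KO2 are exon 5 KO clones that share guide S4 but were made with guide S1 in place of S2, and their 2 RNA-seq libraries each are used only to show where KO3 stands apart. The labels name no treatment, and they give 1 culture protocol for all 4 lines. The comparison covers every gene symbol of the count table that passed a filter on low counts, which left 11434 of 22392 symbols, each represented by its transcript with the most counts. The libraries held 10901040 and 11645866 counts in WT and 12946819 and 12555624 in KO3. The methods call the replicates of the footprint libraries biological, and RNA was taken from the same lysates, but neither the methods nor the labels say that they were separate cultures, so the p-values measure the spread between these samples, which may be technical. KO3 is 1 clone, and what the deletion changed and what a line grown from 1 cell carries cannot be told apart by comparing it with WT. Nor can fewer cells that express a gene and less of its RNA per cell.

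EEF1D is a subunit of the EEF1B complex, which reloads the elongation factor EEF1A with GTP so that it can bring the next aminoacyl-tRNA to the ribosome. The other subunits are EEF1B2, EEF1G and, in animals, the valyl-tRNA synthetase VARS. KTN1 and RRBP1 are proteins of the endoplasmic reticulum (ER) membrane, whose binding to EEF1D through exon 5 is a question of the study.

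Exon 5 is 72 bases long and lies on the minus strand of chromosome 15, from 75900691 to 75900762 in GRCm38. It is shown because its loss defines the line. The sequence is from the RefSeq copy of that build, with exon 5 in capitals and 20 bases of intron on each side:
Eef1d exon 5: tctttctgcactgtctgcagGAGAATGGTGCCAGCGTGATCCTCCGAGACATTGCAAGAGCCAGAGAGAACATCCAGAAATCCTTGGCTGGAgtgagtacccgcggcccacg
On the transcript with this exon (ENSMUST00000154584.8), 2386 and 2582 reads were counted in WT and 1515 and 1497 in KO3. On the transcript that lacks only this exon (ENSMUST00000109972.8), 2057 and 2222 reads were counted in WT and 1644 and 1617 in KO3. The transcript with exon 5 thus had more counts than the one without it in both WT libraries and fewer in both KO3 libraries, while reads on the shared exons count for both. Over the transcript that represents Eef1d in the test, which does not hold exon 5, counts were 2082 and 2255 in WT and 1658 and 1627 in KO3. Over this transcript, Eef1d RNA was therefore lower in KO3, by a log2 fold change of -0.53 (SE 0.06, edgeR adjusted p = 1.1e-11). It was not called against WT in the other clones over this transcript, in an edgeR fit of all 8 RNA-seq libraries. The log2 fold change there was -0.08 in KO1 (adjusted p = 0.317) and 0.10 in KO2 (adjusted p = 0.284). On the transcript with exon 5, counts were below those of both WT libraries in these clones too. They were 1897 and 1717 in KO1 and 1953 and 2237 in KO2.

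The partners of EEF1D moved less. Eef1b2 had 13623 and 14849 counts in WT and 15339 and 14332 in KO3 (log2 fold change -0.07, adjusted p = 0.188). Eef1g had 20773 and 22659 counts in WT and 22687 and 21924 in KO3 (log2 fold change -0.09, adjusted p = 0.06). Neither passed the threshold. Vars rose slightly (log2 fold change 0.14, SE 0.05, adjusted p = 0.011). Of the ER anchors, Ktn1 fell from 969 and 1125 counts to 933 and 908 in the larger KO3 libraries (log2 fold change -0.31, adjusted p = 0.000394), and Rrbp1 rose (0.29, adjusted p = 1.49e-05). Among the other elongation factors, Eef2, the translocase that moves the ribosome along the mRNA, rose by 0.35, and Eef2k, the kinase that inactivates it, by 0.92. Eef1a1 rose by 0.12. Of the 12 genes of the complex, its anchors and elongation factors, 6 were called higher and 3 lower, where 23.1% and 22.3% of all genes were.

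Within 500 kb of Eef1d, 26 genes were tested, Eef1d included. Of these, 7 were called higher and 4 lower, with a median log2 fold change of 0.09, where 23.1% of all genes were called higher and 22.3% lower. The lower ones besides Eef1d were Eppk1 (-1.23), a plakin family gene, Oplah (-1.52), which encodes 5-oxoprolinase of the glutathione cycle, and Mroh1 (-0.29). Plec, the gene of the cytoskeletal linker plectin, was higher (0.31), as was Cyc1, which encodes cytochrome c1 of the respiratory chain (0.22).

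The RNA of KO3 differed from that of WT at many genes, mostly by little. At an adjusted p under 0.05, 5189 genes were called, 45.4% of those tested. Of all genes tested, 2638 (23.1%) were higher and 2551 (22.3%) lower in KO3. DESeq2 called fewer, 3421 in all. Among the called genes, 66.2% changed by under 1.5-fold, and the median absolute log2 fold change was 0.43. Large changes were mainly losses. A fold change of 2 or more was reached by 886 called genes (7.75%), 266 higher (2.33%) and 620 lower (5.42%), and one of 4 or more by 36 higher and 291 lower genes. Where all 4 libraries were required to hold 10 counts or more, 345 called genes were lower by 2-fold or more and 196 higher, a requirement that a gene can miss because it fell. The libraries of the 2 lines did not overlap for 8083 genes (70.7%), and the Pearson r of replicates across genes, which are not independent, was 0.995 in WT and 0.996 in KO3. At the threshold, Cltc was the last gene inside it (log2 fold change -0.12, adjusted p = 0.04998) and Nelfcd the first outside (0.20, adjusted p = 0.05002).

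**Figure D1:**
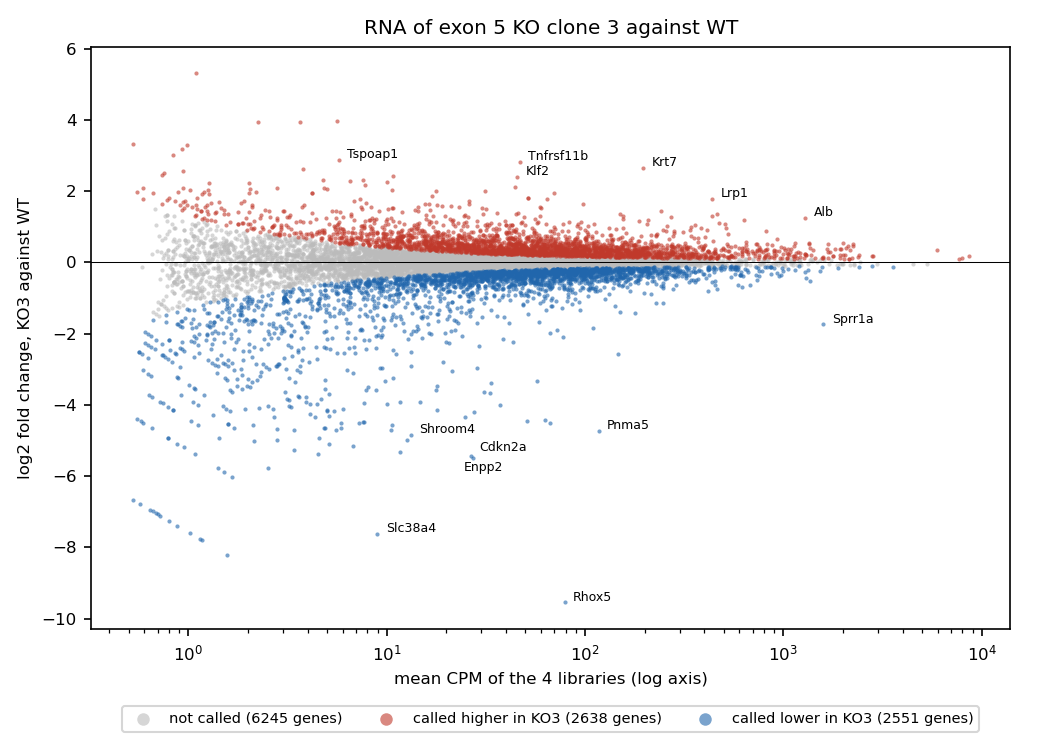
Each point is 1 of the 11434 genes tested, with the mean CPM of the 4 libraries on a log x axis and the log2 fold change of KO3 against WT on the y axis. Red genes were called higher (2638), blue genes lower (2551) and grey genes were not called, and the points below -2 outnumber those above 2.

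The largest rises were taken among genes with at least 10 counts in all 4 libraries. Tnfrsf11b, which encodes osteoprotegerin, a decoy receptor for the cytokine RANKL, had 134 and 130 counts in WT and 983 and 1054 in KO3. That is a log2 fold change of 2.82 (SE 0.11, adjusted p = 1.27e-39), whereas KO1 and KO2 held 0 to 4 counts in each library. Krt7, a keratin of bile duct and other simple epithelia, had 627 and 608 counts in WT and 4213 and 4199 in KO3 (2.64, SE 0.07, adjusted p = 2.74e-53). Klf2, a zinc finger transcription factor, had 159 and 170 counts in WT and 870 and 1023 in KO3 (2.40, SE 0.11, adjusted p = 6.91e-35). In each of these genes both KO3 libraries lay above both libraries of every other line. Mmp3, the matrix metalloproteinase stromelysin-1, rose from 37 and 40 counts to 244 and 205 (2.41). Atoh8, a basic helix-loop-helix transcription factor, rose from 196 and 184 counts to 844 and 937 (2.10). The other genes of the 12 largest rises were Tspoap1 (2.88), Dhrs9 (2.62), Rangrf (2.31), Cby3 (2.30), the cadherin gene Cdh10 (2.29), Eps8 (2.25) and Klhdc7a (2.17), each with 50 counts or fewer in every WT library.

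The largest falls, also taken among genes with at least 10 counts in all 4 libraries, were larger than the rises. This rule leaves out genes that fell under 10 counts in KO3, such as Slc38a4, given below. Enpp2 encodes autotaxin, the secreted enzyme that makes lysophosphatidic acid. It had 598 and 612 counts in WT and 17 and 12 in KO3, a log2 fold change of -5.50 (SE 0.18, adjusted p = 3.74e-44). In KO1 the gene was instead above WT, at 2343 and 2043 counts, and in KO2 it was below WT, at 251 and 249. Pnma5 on the X chromosome had 2457 and 2697 counts in WT and 111 and 102 in KO3 (-4.72, SE 0.09, adjusted p = 1.11e-61), and between 2434 and 3189 in the libraries of KO1 and KO2. Others among the largest falls were Cdkn2a (-5.42), Shroom4 (-4.84), Clca3b (-4.34), the intestinal maltase-glucoamylase gene Mgam (-4.20), the trefoil factor gene Tff2 (-4.15), Aebp1 (-4.00) and the semaphorin gene Sema3g (-3.93). KO3 was called lower than each of the other 3 lines for all of these but Tff2, which had 24 counts in each KO2 library and 20 and 27 in KO3.

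**Figure D2:**
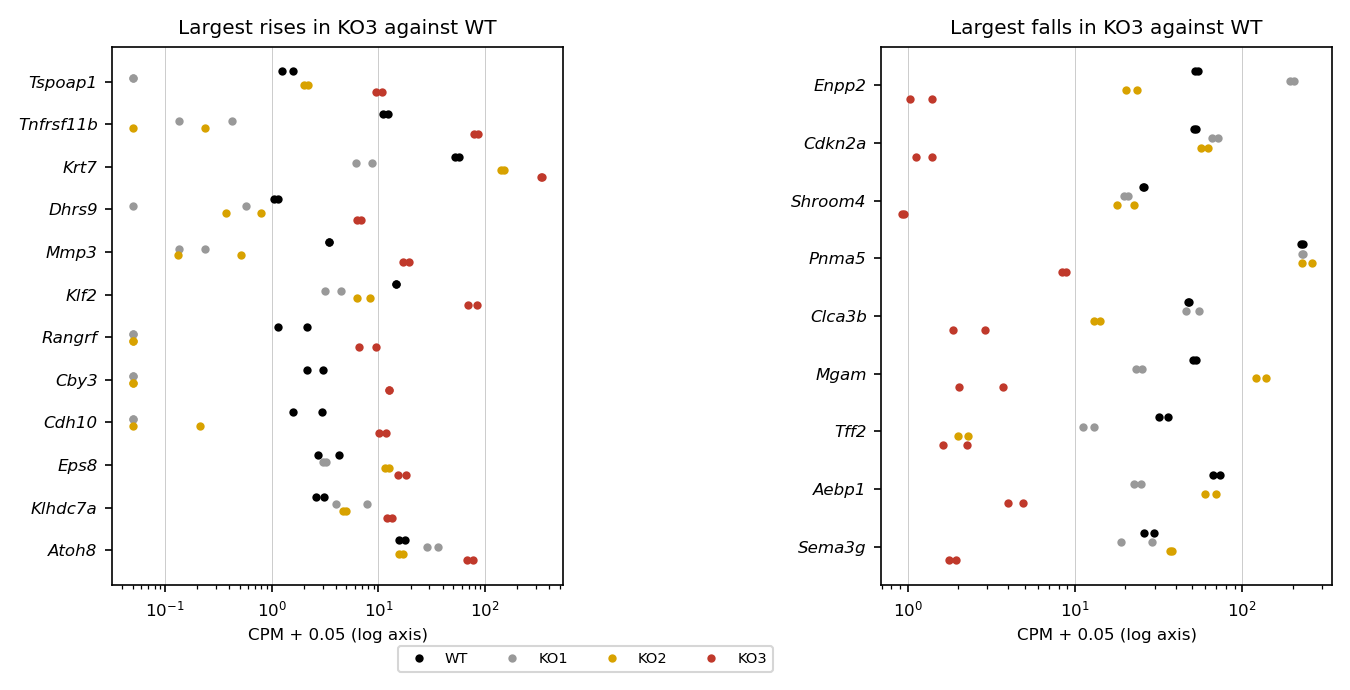
CPM of each of the 8 RNA-seq libraries, with 0.05 added and on a log axis, for the 12 largest rises (left) and 9 of the 12 largest falls (right) of KO3 against WT. Both were taken among genes with at least 10 counts in all 4 libraries of KO3 and WT. The 2 points of a colour are the replicates of 1 line, and on the right the KO3 points lie to the left of all others except in Tff2.

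Some genes were close to absent in KO3. Slc38a4, a gene of a neutral and cationic amino acid transporter, had 197 and 210 counts in WT and 1 in each KO3 library, a ratio of 222 with an exact interval of 61.1 to 1840 for counting error alone. It was the only gene with at most 3 counts over both KO3 libraries and at least 100 in each WT library, and no gene showed the reverse. The homeobox gene Rhox5, singled out after its values were seen, had 1635 and 1956 counts in WT and 4 and 1 in KO3. It was nearly absent from the other clones too, with 4 and 3 counts in KO1 and 12 and 8 in KO2. Rhox2h, its neighbour on the X chromosome and chosen in the same way, had 238 and 220 counts in WT and 11 and 8 in KO3 but 253 to 367 in KO1 and KO2. Among genes called lower by 2-fold or more, the one with the highest mean CPM in WT, also chosen after its values were seen, was Sprr1a, which encodes a cornified envelope protein. It fell from 27394 and 28369 counts to 9566 and 8651 (-1.74).

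Cdkn2a encodes the cell cycle inhibitor p16 and, through another first exon, the p53 activator p19ARF. Its transcript ENSMUST00000060501.4 had 579 and 608 counts in WT and 17 and 13 in KO3, and ENSMUST00000107131.1 had 487 and 526 in WT and 30 and 29 in KO3. Reads on the exons they share count for both. The clones KO1 and KO2 had between 605 and 825 counts on the first transcript. Cdkn2b, the neighbouring gene of the related inhibitor p15, fell from 277 and 328 counts to 115 and 127 (-1.45, adjusted p = 2.39e-14). Mtap on the other side had 1692 and 1811 counts in WT and 1800 and 1720 in KO3 (-0.12, adjusted p = 0.115) and was not called. Of 7 genes tested within 1000 kb of Cdkn2a, 3 were called lower, namely Cdkn2a itself, Cdkn2b and Klhl9 (-0.28), and none higher, where 22.3% and 23.1% of all genes were. Of the 29 cyclins, CDK inhibitors and growth control genes tested, 8 were called higher and 8 lower, among them Ccnd1 (-0.19), Cdk4 (0.17) and Mycn (1.41, from 39 and 33 counts to 101 and 109). Cdkn1a, the p21 gene, had 930 and 999 counts in WT and 1203 and 1159 in KO3 and was not called (0.16, adjusted p = 0.0572).

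A pair of the genes that set KO3 apart from all other lines lay close together on chromosome 14. Stab1, a scavenger receptor gene, fell from 189 and 183 counts to 18 and 16 (-3.57) and Sema3g from 327 and 304 to 24 and 21. Of the tested genes between them, Nisch had 2976 and 3033 counts in WT and 3138 and 2978 in KO3 (-0.10, adjusted p = 0.125) and Tnnc1 had 42 and 46 in WT and 47 and 60 in KO3 (0.16), and neither was called. Nt5dc2, on the other side of Stab1, fell from 347 and 345 counts to 207 and 188 (-0.94). Of 29 genes tested within 1000 kb of Stab1, with Stab1 and Sema3g included, 10 were called lower and 1 higher, where 22.3% and 23.1% of all genes were. Il17rd, which encodes an inhibitor of fibroblast growth factor signalling and lies on the same chromosome, fell from 177 and 159 counts to 19 and 13 (-3.51).

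The genes were next grouped in 48 lists of pathways, complexes and cell type markers. For each list, the share of tested members called higher or lower stands beside 23.1% and 22.3% of all genes, and no test was made of a list. Replication-dependent histones and cytosolic aminoacyl-tRNA synthetases were the lists with the highest shares of called rises among those with 10 or more tested members. Transporters of bile acids and organic solutes and the NF-kB and cytokine list had the highest shares of called falls.

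**Figure D3:**
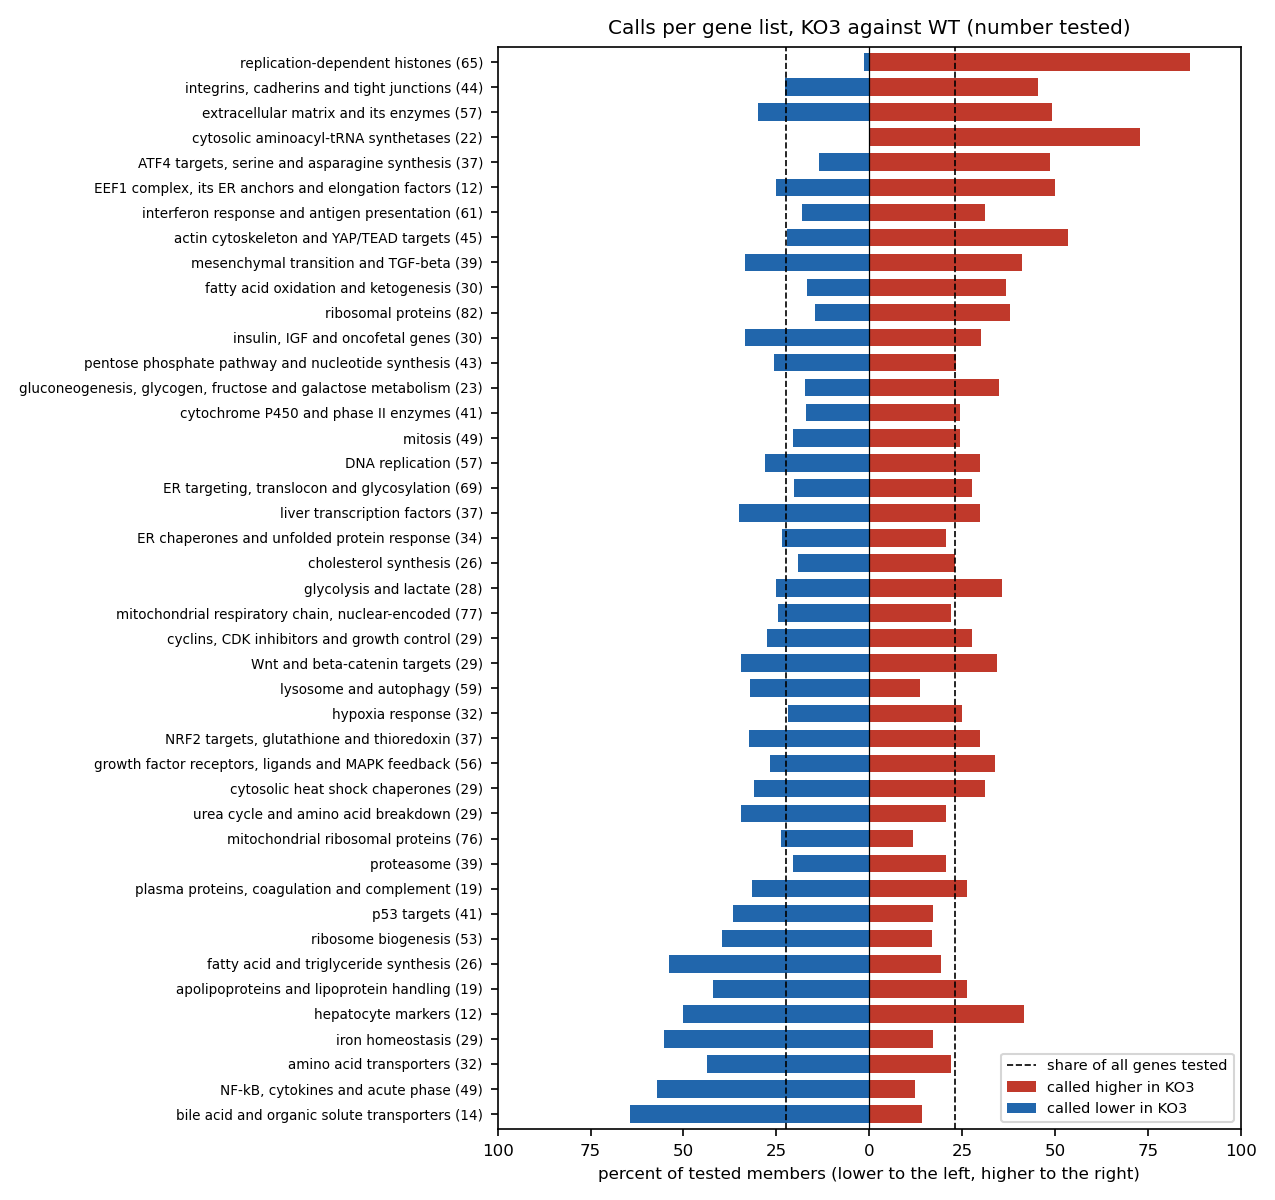
Bars give the percent of tested members called higher (red, to the right) or lower (blue, to the left) in KO3 against WT, for each list with 10 or more tested members, with the number tested in brackets and lists sorted by their median log2 fold change. The dashed lines mark 23.1% and 22.3% of all genes tested, and the histone and aminoacyl-tRNA synthetase bars reach furthest to the right.

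NF-kB is a family of transcription factors that inflammatory signals release from its inhibitors and that switches on chemokines, adhesion molecules and its own inhibitors. Of 49 tested genes of NF-kB signalling, cytokines and the acute phase, 28 were called lower and 6 higher, with a median log2 fold change of -0.45 where all genes had 0.00. With the median of the neighbouring genes subtracted, the list median was -0.31. Among ligands, Ccl2, which attracts monocytes, had 602 and 800 counts in WT and 76 and 43 in KO3 (-3.68, SE 0.14, adjusted p = 2.55e-39). The KO1 libraries held 3570 and 2882 counts of it, so these clones lay on opposite sides of WT. Csf1, the macrophage growth factor, fell from 776 and 1030 counts to 640 and 630 (-0.63), and Ccl20 (-1.92), Cxcl1 (-1.26), Il18 (-1.59) and Csf2 (-2.49) fell from fewer than 60 counts. Ccl9 had 17 and 23 counts in WT and 0 in both KO3 libraries, which is at least 14.5-fold lower with a floor of 3 counts over the group. Among adhesion molecules of this pathway, Icam1 fell from 751 and 885 counts to 207 and 175 (-2.22) and Vcam1 from 412 and 430 to 180 and 185 (-1.33). In each of these genes the lines did not overlap, which held for 70.7% of all genes tested.

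The signalling genes themselves were lower as well. Nfkb2, which encodes the p100 precursor of the p52 subunit, fell from 3418 and 3664 counts to 1849 and 1693 (-1.13, SE 0.06). Relb fell by 0.75, Nfkb1 by 0.32 and Rela by 0.27 on the log2 scale. The inhibitors Nfkbie (-1.71), Nfkbia (-0.80), Tnfaip3 (-0.55) and Bcl3 (-0.48), the last also a coactivator, were lower too. So were the adaptor Traf1, from 114 and 143 counts to 6 in each KO3 library (-4.52), and Tnfaip2, from 106 and 93 to 6 and 9 (-3.84). The receptor genes Tnfrsf1a (-0.09) and Tnfrsf1b (0.09) and the adaptor gene Myd88 (0.10) were not called. The 6 rises were the acute phase gene Lbp, from 361 and 322 counts to 850 and 793 (1.14), the alarmin Il33 (0.73), Tnfaip8 (0.69), the receptors Lifr (0.66) and Il6ra (0.66), and Cd14 (0.57).

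Promoter sequence was at hand for 36 of these 49 genes (RefSeq, GRCm38.p6). That is under 80%, so shares over the list are void as a comparison and are given only to describe the sequences. The NF-kB motif, searched on both strands of the 250 bases before each gene start, was found in 14 of the 36 and in 9 of the 20 that were called lower, and in 10.5% of the promoters of all tested genes with a sequence. Motif matches that overlap were joined. The stretches below, from genes called lower, show the matches in capitals, and a match is not a measured binding site:
Nfkb2 (chr19:46304658-46304736, plus strand): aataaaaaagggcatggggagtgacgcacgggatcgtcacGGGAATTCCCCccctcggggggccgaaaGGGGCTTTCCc
Nfkbia (chr12:55492648-55492716, minus strand): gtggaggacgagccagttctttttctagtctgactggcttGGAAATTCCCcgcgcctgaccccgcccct
Nfkbie (chr17:45555554-45555643, plus strand): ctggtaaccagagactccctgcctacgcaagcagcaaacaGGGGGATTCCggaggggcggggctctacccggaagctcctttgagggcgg
Cxcl1 (chr5:90891134-90891224, plus strand): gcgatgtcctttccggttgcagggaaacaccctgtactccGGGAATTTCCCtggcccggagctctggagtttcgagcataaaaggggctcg
The log2 fold changes of these genes lay between -1.71 (Nfkbie) and -0.80 (Nfkbia), while 5 of 13 members with a sequence that were not called also held the motif.

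Aminoacyl-tRNA synthetases attach amino acids to their tRNAs and so supply what EEF1A carries. Of the 22 cytosolic synthetases and their scaffold proteins, 16 were called higher and none lower, with a median log2 fold change of 0.21 and no change of 2-fold. Nars, for asparagine, had 4734 and 4977 counts in WT and 7427 and 7635 in KO3 (0.51, SE 0.05). Kars, for lysine, had 3730 and 3945 counts in WT and 5652 and 5409 in KO3 (0.40). Wars (0.55), Yars (0.52), Hars (0.38) and Lars (0.37) rose as well. Nars, Hars and Lars lie on chromosome 18, Kars on chromosome 8, Wars on chromosome 12 and Yars in a stretch of chromosome 4, all of which were higher in KO3 as a whole, as given with the chromosomes. With the median of the neighbouring genes subtracted, the median of the list was 0.12. Gars had 6974 and 7207 counts in WT and 8307 and 8132 in KO3, and with Sars, Cars, Qars, Rars and Farsb it was not called, Sars having the lowest value (0.02) and Farsb the highest (0.09).

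ATF4 is the transcription factor through which amino acid shortage and other stresses raise amino acid synthesis and uptake. Of 37 tested genes of its targets and of serine and asparagine synthesis, 18 were called higher and 5 lower, with a median of 0.20, and of 0.27 after subtraction of the neighbouring genes. Phgdh, the first enzyme of serine synthesis, was the most abundant, with 19866 and 20762 counts in WT and 29499 and 28829 in KO3 (0.39, SE 0.04). Atf4 itself rose by 0.22. The regulator genes Trib3, from 161 and 162 counts to 410 and 475 (1.33), Atf5, from 1034 and 990 to 2091 and 2216 (0.96), Ddit3, the CHOP gene (0.58), and Sesn2 (0.65) rose. So did the transporters Slc7a5 (0.67), Slc1a4 (0.87) and Slc3a2 (0.20) and the enzyme genes Pycr1 (0.83), Chac1 (0.63) and Pck2 (0.53). Other members of the same pathway did not pass the test. Asns had 2311 and 2456 counts in WT and 2710 and 2533 in KO3 (0.01), Psat1 differed by 0.05, Mthfd2 by 0.02 and Slc7a11 by 0.09. The members called lower were the mitochondrial folate enzyme Aldh1l2, from 118 and 98 counts to 8 and 10 (-3.70), Nupr1 (-2.01), Gdf15 (-0.70), Slc38a2 (-0.40) and Slc1a5 (-0.28).

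**Figure D4:**
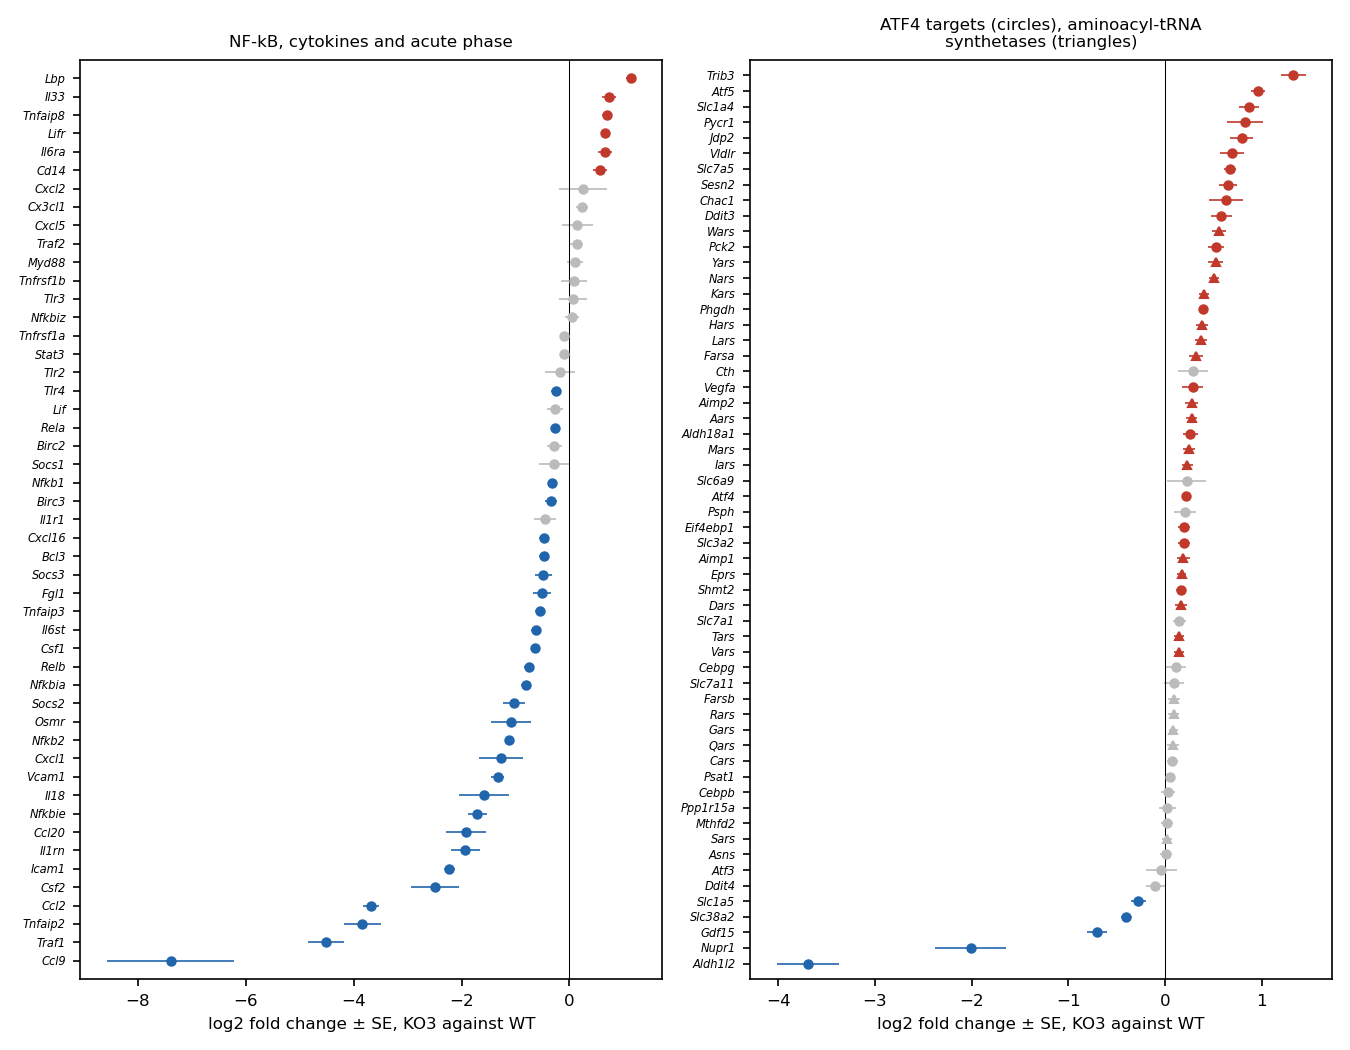
Log2 fold change of KO3 against WT with its SE for each tested member of the NF-kB and cytokine list (left) and of the ATF4 list and the cytosolic aminoacyl-tRNA synthetases (right, circles and triangles). Red members were called higher, blue lower and grey not called, and blue members fill the lower part of the left panel, where the fitted value of Ccl9, with 0 counts in KO3, depends on the prior count and is no bound.

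The element TGATGNAA, part of the sites that ATF4 shares with C/EBP proteins, was searched in the same way. It was in 9 of the 31 members of the ATF4 list with a promoter sequence and in 2.47% of those of all tested genes with one. Since only 78.2% of all tested genes had a promoter sequence, these shares too only describe the sequences. Stretches around it in genes called higher are shown with the matches in capitals:
Chac1 (chr2:119351009-119351096, plus strand): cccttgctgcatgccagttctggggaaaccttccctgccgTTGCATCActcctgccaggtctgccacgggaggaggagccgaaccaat
Pycr1 (chr11:120643804-120643891, minus strand): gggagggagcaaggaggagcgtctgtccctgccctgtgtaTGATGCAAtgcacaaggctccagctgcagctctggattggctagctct
Of the members with a sequence, 5 of 16 that were called higher, 1 of 3 called lower and 3 of 12 not called held it.

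Replication-dependent histones are made in S phase from clustered genes without introns, and their mRNAs end in a stem-loop instead of a poly(A) tail. Of 65 tested, 56 were called higher in KO3 and 1, the linker histone gene Hist1h1a, lower (-1.02). The median log2 fold change was 0.32. The lines did not overlap in 61 of the 65, and in 70.7% of all genes tested. Their summed level was 43160 and 41340 CPM in WT and 51330 and 54450 CPM in KO3. The rise was found in the cluster on chromosome 13, with 45 of 52 called higher and a median of 0.31, and in those elsewhere, with 11 of 13 and a median of 0.45. Many of these genes are near-identical copies, and the study reports uniquely mapped reads. Reads that fit several copies may therefore have been dropped or split among them, and single members are uncertain. Both polyA RNA and depletion of rRNA are named for these libraries of both lines, and the part of RNA selection in the histone values was not tested. Most of these genes are each other's neighbours, and with the median of the neighbouring genes subtracted the list median was 0.03. Other genes of proliferation did not move together. Of 57 DNA replication genes, 17 were called higher and 16 lower, and of 49 mitosis genes 12 and 10.

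Markers of hepatocytes were checked because Hepa1-6 derives from liver. Alb, Afp, Krt8, Krt18 and Hnf4a had between 1203 and 17944 counts in every WT library, while Ttr and Apoa1 had 14 or fewer. In KO3 the albumin and alpha-fetoprotein genes rose. Alb had 8618 and 8724 counts in WT and 22180 and 22982 in KO3 (1.25, SE 0.04, adjusted p = 7.65e-43), and Afp 8216 and 8140 in WT and 13956 and 14161 in KO3 (0.65). Other markers fell, among them the transferrin gene Trf, from 8283 and 8002 counts to 5930 and 5648 (-0.62), Apob (-0.99), the fibrinogen gene Fgb (-0.72) and the transcription factor Hnf4a (-0.36). Of the 12 markers tested, 5 were higher and 6 lower. Of 19 plasma protein genes tested, 5 were called higher and 6 lower, where 23.1% and 22.3% of all genes were. Itih2 rose from 3407 and 3486 counts to 8092 and 7977 (1.09), whereas Gc, the vitamin D-binding protein (-2.44), Hpx, hemopexin (-2.13), and Cfi, complement factor I (-1.87), fell. Of 19 genes of apolipoproteins and lipoprotein handling, 5 were called higher and 8 lower, with a median of -0.17. Lrp1, the large endocytic receptor, rose from 2321 and 2184 counts to 8233 and 8565 (1.77, SE 0.05). Apoe (0.34) and Lpl, the lipoprotein lipase (1.38), rose as well, and Apoc2 (-1.11), Angptl4 (-1.27) and Scarb1 (-0.75) fell.

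Markers of bile duct epithelium were mostly higher, with 7 of 9 tested called higher and 1 lower, at a median of 0.46. Besides Krt7 these were the claudin gene Cldn4, from 274 and 300 counts to 728 and 875 (1.36), Epcam (0.68), Pkhd1 (0.63), Sox9 (0.46), Onecut1 (0.40) and Spp1, the osteopontin gene (0.37). Krt19 and Cftr had 3 or fewer counts in each library. The summed level of all 18 markers was 964 and 937 CPM in WT and 1379 and 1483 CPM in KO3, of which Krt7 alone made up 57.0 and 51.8 CPM in WT and 334 and 344 CPM in KO3. Markers of muscle, leukocytes and endothelium were scarce. The myoblast genes Myod1, Myf5, Myog and Pax7 had no counts in any of the 4 libraries, and none of the 6 muscle markers tested was called. Adgre1 and Cd3e of leukocytes and Cdh5 and Tek of endothelium also had no counts. Of the fibroblast markers, Dcn, decorin, was abundant in both lines at 10386 and 10492 counts in WT and 13863 and 13002 in KO3 (0.23). Col3a1 rose from 4 and 2 counts to 55 and 50 (3.95), Pdgfra fell from 87 and 98 to 17 and 22 (-2.36), and Col1a2 had no counts. Of the 3 leukocyte markers tested, Cd68 fell (-1.23), Cd14, the most abundant, rose (0.57) and Csf1r was not called (-0.28). The endothelial gene Pecam1 fell from 25 and 17 counts to 1 and 8 (-2.32).

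Genes of cell adhesion and the extracellular matrix changed in both directions, with more rises. Of 44 integrin, cadherin and junction genes tested, 20 were called higher and 10 lower. Among the rises were junction genes named after their values were seen. Dsp, desmoplakin, had 3634 and 3806 counts in WT and 8622 and 8515 in KO3 (1.08, SE 0.05), Jup, plakoglobin, 2016 and 2097 in WT and 3827 and 4377 in KO3 (0.87), and Itgb4, integrin beta 4, 990 and 922 in WT and 2737 and 2660 in KO3 (1.37). Dsg2 (0.99) and Dsc2 (1.08) rose too. In contrast Itgb3 fell from 164 and 171 counts to 5 and 11 (-4.49), Cldn3 from 543 and 568 to 119 and 120 (-2.34), Itga2 from 1409 and 1273 to 667 and 642 (-1.16), and Ctnnb1, beta-catenin, from 5665 and 6402 to 3623 and 3899 (-0.81). Of 57 matrix genes, 28 were called higher and 17 lower. Rises named after their values were seen were those of the collagen IV genes Col4a1, at 1832 and 1746 counts in WT and 4958 and 4529 in KO3 (1.28), and Col4a2 (1.07) and of the laminin genes Lama5 (1.20) and Lamc1 (0.49), while Col7a1 (-3.24) and Col6a1, from 212 and 251 counts to 12 and 9 (-4.57), fell. The collagenase Mmp13 fell from 2927 and 2781 counts to 514 and 529 (-2.58). Of 45 genes of the actin cytoskeleton and of YAP/TEAD targets, 24 were called higher and 10 lower. Ccn2, the connective tissue growth factor gene, rose from 2954 and 2920 counts to 8525 and 7920 (1.36) and Ezr, ezrin, by 1.06, while Ccn1 was not called (0.03) and Ankrd1 fell (-0.37).

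Of 14 tested carriers of bile acids, drugs and organic solutes, 9 were called lower and 2 higher, with a median of -0.48. The drug efflux pumps Abcb1a, from 435 and 432 counts to 59 and 55 (-3.05), Abcb1b, from 1263 and 1320 to 403 and 352 (-1.90), and Abcg2 (-1.13) fell, and Abcc5 rose (0.42). Amacr, an enzyme of bile acid synthesis that the list also holds, rose as well (0.65). Of 32 amino acid transporters, 14 were called lower and 7 higher, with a median of -0.20. Over members with 10 counts or more in each library the median was 0.09, which leaves out the members named next, as they are under 10 counts in KO3 alone. Besides Slc38a4, Slc6a13 fell from 233 and 286 counts to 9 and 5 (-5.31), Slc38a1 from 99 and 115 to 8 and 1 (-4.66) and Slc7a2 from 66 and 103 to 6 in each library (-3.91). Of 29 genes of iron handling, 16 were called lower and 5 higher. Lower ones included Fth1, the ferritin heavy chain (-0.24), Steap3 (-2.53) and Hmox1, heme oxygenase (-0.80), and the exporter ferroportin, Slc40a1, rose from 797 and 1052 counts to 1789 and 1855 (0.86).

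In lipid metabolism, more synthesis genes were called lower than higher and more oxidation genes higher than lower, with small medians. The median was -0.14 for synthesis and 0.08 for oxidation. After subtraction of the neighbouring genes these were -0.06 and 0.16. Of 26 genes of fatty acid and triglyceride synthesis, 14 were called lower and 5 higher, among them Scd1 (-0.38), Fasn (-0.12), Elovl6 (-0.69) and Gpam (-0.59) lower and Agpat2 (1.15), Acss2 (1.09) and Me1 (0.32) higher. Of 30 genes of fatty acid oxidation and ketogenesis, 11 were called higher and 5 lower. Acsl1, which activates long-chain fatty acids, rose from 1421 and 1557 counts to 4317 and 4455 (1.43, SE 0.06), Acaa2 by 1.06 and Cpt1a, the carnitine palmitoyltransferase of the outer mitochondrial membrane, by 0.66. Ppargc1a, a coactivator of mitochondrial genes, fell from 72 and 90 counts to 15 and 10 (-2.81). Cholesterol synthesis genes stayed near the share of all genes, with 6 of 26 called higher and 5 lower.

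Among the remaining lists, ribosomal protein genes were called higher in 31 of 82 and lower in 12, with a median of 0.06. Ribosome biogenesis genes were called lower in 21 of 53 and higher in 9, with Nop2, an rRNA methyltransferase (-0.64), Polr1a, the largest subunit of RNA polymerase I (-0.60), and Tsr1 (-0.66) lower. Of 41 p53 targets, 15 were called lower and 7 higher, and of 59 lysosome and autophagy genes 19 and 8. Genes of ER chaperones and the unfolded protein response, of the translocon and glycosylation, of the proteasome, and of the nuclear-encoded respiratory chain had medians between -0.06 and 0.02.

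Changes of the same direction lay together along the chromosomes. The median log2 fold change was 0.33 on chromosome 12, where 55.5% of 382 tested genes were called higher and 6.81% lower. It was 0.32 on chromosome 18, with 64.2% of 313 higher and 7.35% lower, 0.22 on chromosome 8, with 48% higher, and 0.18 on chromosome 2, with 40.6% higher. On chromosome 6 the median was -0.32, and 58.2% of 521 genes were lower and 6.72% higher. On chromosome 7 the median was 0.00. In both KO3 libraries, taken singly against the mean of WT, the medians were 0.32 and 0.31 on chromosome 12 and -0.32 and -0.31 on chromosome 6, and both WT libraries lay between -0.01 and 0.01 on these chromosomes.

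Within chromosomes the shifts covered stretches of genes. In runs of about 50 neighbouring tested genes, all 10 runs of chromosome 6 had medians between -0.37 and -0.22, and all 7 runs of chromosome 12 between 0.28 and 0.36. On chromosome 4 the 5 runs from 3.5 to 105.2 Mb had medians between -0.51 and -0.35, the next 3 between -0.10 and -0.04, and the run from 127.1 to 132.9 Mb had 0.34. The run that holds Cdkn2a was at -0.51. Within chromosome 16 the last runs, from 52.2 to 98.1 Mb, were at 0.35 and 0.32, and the first of chromosome 2, from 3.1 to 26.4 Mb, at 0.42 and 0.41. Chromosome 8 was shifted alike in KO3 and KO2, with medians of 0.22 and 0.25, and stood at -0.03 in KO1. KO1 had medians of -0.11 on chromosome 12, 0.14 on chromosome 6 and -0.44 on chromosome 7, and KO2 had -0.21, 0.05 and 0.00. The number of DNA copies was not measured here, and its part in these shifts was not tested.

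**Figure D5:**
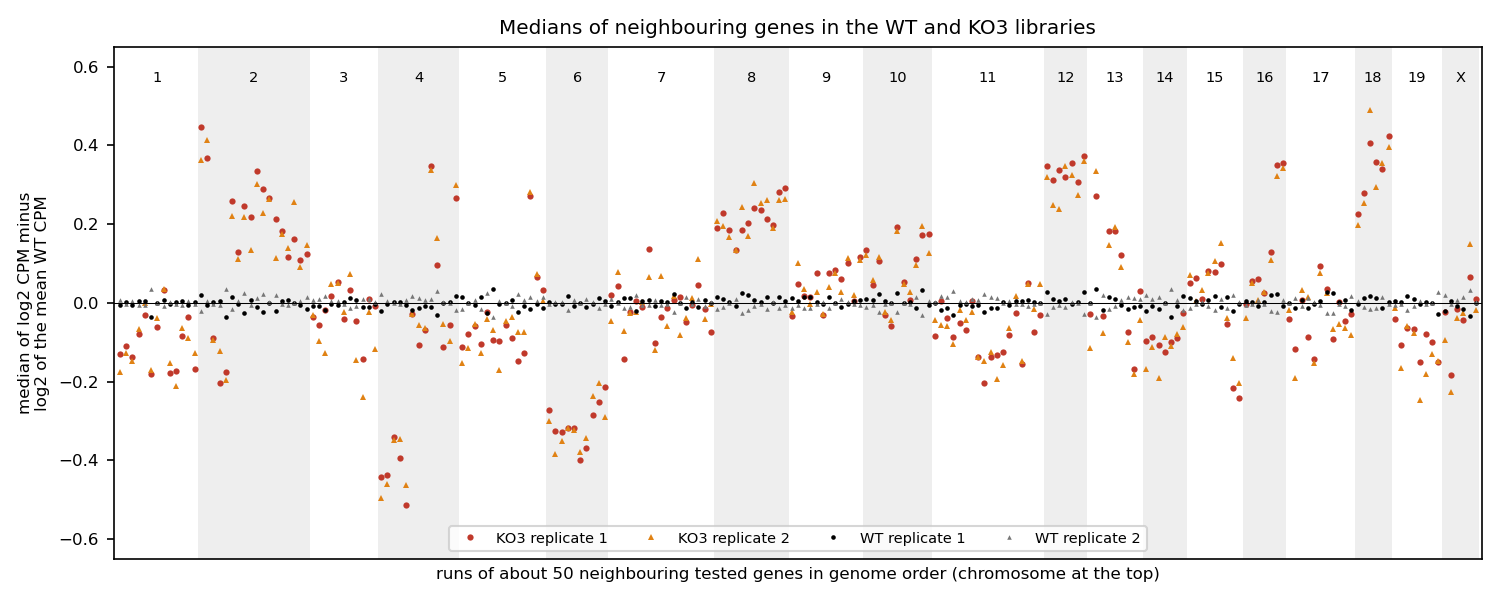
Each position on the x axis is a run of about 50 neighbouring tested genes in genome order, with chromosomes marked by shading and named at the top. The y axis is the median over the run of log2 CPM (with 0.5 added) minus log2 of the mean WT CPM, for each WT and KO3 library, and the 2 KO3 libraries move together below 0 on chromosome 6 and above 0 on chromosomes 8, 12 and 18 while the WT libraries stay near 0.

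Compared with every other line in 1 fit of the 8 RNA-seq libraries, KO3 was apart at 2994 of 11755 genes (25.5%), 1495 higher (12.7%) and 1499 lower (12.8%) than WT, KO1 and KO2 alike. These contrasts share the KO3 libraries. KO3 differed from WT at 42% of genes in this fit, from KO1 at 60.1% and from KO2 at 50.9%. In a principal component analysis of the 8 libraries, the first component held 56.6% of the variance. It set KO1 and KO3 at opposite ends with WT and KO2 between them. The second component held 32.0% and placed KO1 and KO3 side by side, with KO2 at the opposite end and WT between. In the higher direction, 219 of 906 tested genes were apart on chromosome 2, 178 of 382 on chromosome 12 and 159 of 313 on chromosome 18. In the lower direction, 234 of 521 were apart on chromosome 6 and 181 of 696 on chromosome 4. The largest differences from all 3 lines besides those named above were the rises of Scel, sciellin, from 8 and 7 counts to 112 and 149 (3.97), of Tacc1 (2.07), of the receptor gene Ephb6, from 299 and 355 counts to 1457 and 1304 (1.95), and of the GTPase gene Rhob, from 357 and 298 to 1144 and 1328 (1.79). The falls included Pik3ap1, an adaptor of PI3 kinase, from 363 and 386 counts to 43 and 25 (-3.58). Of the histones 46 were apart from all 3 lines in the higher direction, and of the NF-kB and cytokine list 21 in the lower direction and 5 in the higher.

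The length of the counted coding sequence went with the share of genes called but not with a direction. With genes split into 5 equal groups by this length, the group medians lay between -0.01 and 0.01, while 21.4% were called higher and 19.5% lower in the shortest group and 27.5% and 26.3% in the longest. With 5 groups by the GC content of the transcript, they went from -0.05 in the lowest group to 0.04 in the highest.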

How the data were processed

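RNA-seq libraries of WT, KO1, KO2 and KO3 Hepa1-6 cells (2 each) were used. Per the methods and labels, the authors trimmed reads with fastp 0.21.0, aligned them with STAR 2.7.0a to mm10 with GENCODE annotation, and counted A-site positions on each coding sequence without its first and last 5 codons. The labels name both polyA RNA and rRNA depletion, the methods the latter, which was not settled here. The authors deposited raw counts per transcript, and a read counts on every transcript it fits. The transcript with the largest sum over all 16 columns represented each gene. Positions are from GENCODE vM21 (GRCm38).

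KO3 and WT were fitted with edgeR 4.0.16 in R 4.3.3 (filterByExpr, TMM, quasi-likelihood test, two-sided), with Benjamini-Hochberg adjusted p-values under 0.05 called, and the fit was tested on simulated data. All 8 RNA-seq libraries entered a second fit for KO3 against each line. CPM uses library sizes scaled by TMM. Exact intervals (95%) and floors cover counting error only.

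The members, lists and rules were chosen with earlier results of these data known. Named genes are the 12 largest changes each way with at least 10 counts in all 4 libraries, genes near absent in 1 line, in each list up to 3 called members each way with the highest level per length, the EEF1B genes and their anchors, the 10 genes each way furthest from all lines, and the neighbours of Eef1d. Some results under these rules are not reported here. Other genes were named after their values were seen. DESeq2 1.42.0, other factors, filters and transcripts, a replicate block and left-out libraries were alternatives. Ribo-seq counts were not analysed here.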

Additional observations from a re-analysis of the deposited data

Results flagged for a closer look

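Some of the genes with the largest differences in KO3 differed from WT in the opposite direction in another clone. Each was picked out because both clones were called against WT with opposite signs and the difference between the clones was itself called. The calls are from the fit of 8 RNA-seq libraries (edgeR's quasi-likelihood test, Benjamini-Hochberg adjusted). At least 10 counts were also required in every library of WT, KO3 and the other clone. This leaves out larger reversals in genes near absent from the other clone. Tnfrsf11b, for example, stood at 2.82 in KO3, -5.62 in KO1 and -6.89 in KO2. The contrasts share the WT and KO3 libraries, and no cause was tested. Values are log2 fold changes of KO3 minus those of the other clone.

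Among the genes higher in KO3, the difference from KO1 was 5.52 for Krt7, 4.33 for Klf2, 2.62 for Ephb6 and 2.50 for Rhob. From KO2 it was 3.42 for Klf2 and 2.61 for Ephb6. KO1 had 71 and 93 counts of Krt7 and KO2 had 1600 and 1732 where WT had 627 and 608.

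Among the genes lower in KO3, the difference from KO1 was -7.39 for Enpp2, -5.82 for Cdkn2a, -5.92 for Ccl2, -5.86 for Pik3ap1 and -5.53 for Stab1. From KO2 it was -5.51 for Mgam, -4.36 for Sema3g, -4.21 for Ccl2, -4.90 for Pik3ap1 and -4.71 for Stab1. Cdkn2a was 0.40 above WT in KO1.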

How the results depend on the processing

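DESeq2's Wald test called 3421 genes, 1736 higher and 1685 lower, 3396 of them shared with edgeR. With at least 10 counts in every library, 543 genes changed by 2-fold or more, but a gene that fell far in KO3 cannot meet this requirement. Leaving out 1 library gave between 3766 (without WT replicate 2) and 4652 (without KO3 replicate 1) called genes, 1904 to 2331 higher and 1862 to 2321 lower, 781 to 871 with a change of 2-fold or more, and 2371 to 2881 apart from all 3 lines. A replicate block called 5383 genes, 5186 of them shared. Over 5816 genes, the deviations of KO3 and WT libraries with the same number had a correlation of 0.112, and those of the other pairs of lines lay between 0.0193 (KO1 and KO2) and 0.359 (KO3 and KO2), but there are only 2 numbers and the labels name no shared batch, so the samples were not treated as paired. No gene called both in edgeR and in an alternative had the opposite sign. Of the 309 genes taken by the naming rules, however, 49 lost their call with DESeq2, 20 in the fit of 8 libraries and between 25 (without KO3 replicate 1) and 61 (without WT replicate 2) when 1 library was left out. Of the 48 list medians, 23 took the other sign under at least 1 alternative. After subtraction of the median of neighbouring genes, which was chosen after seeing the data, the histone list stood at 0.03 and the NF-kB and cytokine list at -0.31. Low counts limit the genes with a few reads in 1 line.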
